A study of Mus musculus with 10 samples.

Results

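Dermal T cells of Tcrd-/- mice were compared with dermal T cells of wild-type (WT) mice through their T cell receptor beta (TRB) transcripts. The comparison took every library whose label gave unsorted dermis and TRB, which were 3 of the 10 libraries of the series: dermal Tcrd-/- A, dermal Tcrd-/- B and 1 WT library. The WT mice were C57BL/6-N/Crl and the knockout mice were B6.129P2-Tcrdtm1Mom/J, a line that carries a disrupted T cell receptor delta constant gene in the germline, so the animals make no γδ T cells. The strains come from different sources, and background and knockout cannot be told apart in this design. Cells came from ear skin and were sorted in both genotypes with the same gate, as live cells positive for CD45, CD3 and TCRβ. Each library was a pool of cells from several animals, between 5 and 18 per the labels, and no cell number or age was given, so no value per animal exists. RNA was copied by 5′ RACE, TRB transcripts were amplified by PCR and the products were read on an Illumina MiSeq. Other libraries of the series covered CD103-sorted dermal cells, epidermal T cells and lymph node, and the 3 epidermal Tcrd-/- libraries entered the fits below only as a source of the spread.

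A beta chain gene is assembled in the thymus by joining 1 V, 1 D and 1 J segment. Bases are trimmed from the segment ends, and the enzyme TdT can add bases that no segment codes for. The joined region is called CDR3, and its sequence serves as a tag for the clone of cells that descends from 1 rearranged precursor. In WT mice the dermis holds γδ T cells beside αβ T cells, and mice without Tcrd have only αβ T cells there. The title of the series states that αβ T cells which do not depend on MHC replace the γδ cells of skin in these mice, and the beta chain repertoire is what these libraries measured. Reads with the same nucleotide CDR3, V segment and J segment make up 1 clonotype. Read numbers per clonotype combine the number of cells, the transcript amount per cell and PCR, which cannot be told apart.

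Dermal Tcrd-/- A held 52910 reads in 235 listed clonotypes, dermal Tcrd-/- B 41602 reads in 77, and WT 189162 reads in 702. For a segment or clonotype with 0 reads, 3 reads were taken as the most that could have been missed, which is 0.00567%, 0.00721% and 0.00159% of the libraries. Reads were copied by PCR with no molecular identifiers named, so they do not count molecules, and such limits and all 95% intervals cover counting error only. The library names put B and WT in 1 set of libraries and A in another, so the difference between B and WT is also the difference within a set. No TRG or TRD segment was listed in the 3 tables, segments that a TRB-specific PCR would not amplify in any case, so this does not check the genotype. Tcrd itself was not measured. With 2 libraries against 1, the smallest p a permutation test can give is 0.333, so measures per library are given as values.

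The sequences of the 5 largest clonotypes of each library are shown because they hold much of the reads that set the knockout libraries apart. Lower-case letters are bases that the deposited positions assign to V, D or J, and capitals are bases assigned to no segment, here called inserted. In dermal Tcrd-/- A they were as follows.
A1, TRBV13-3 with TRBJ2-5: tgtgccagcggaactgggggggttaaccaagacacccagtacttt
A2, TRBV13-3 with TRBJ2-2: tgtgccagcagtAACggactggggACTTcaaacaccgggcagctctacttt
A3, TRBV13-3 with TRBJ1-1: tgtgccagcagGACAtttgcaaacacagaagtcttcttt
A4, TRBV13-2 with TRBJ2-3: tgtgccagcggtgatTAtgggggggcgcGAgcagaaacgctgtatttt
A5, TRBV13-3 with TRBJ2-7: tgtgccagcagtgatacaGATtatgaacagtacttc

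Clonotype A1 held 13.5% of the reads of its library, 2.82 times as many as the next, and had no inserted base, although its D stretch did not match the reference TRBD2. A2 held 4.80% and A3 4.73%. A4 held 3.53% and A5 3.003%. In dermal Tcrd-/- B the 5 largest were as follows.
B1, TRBV13-3 with TRBJ2-7: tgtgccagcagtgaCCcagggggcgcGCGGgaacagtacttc
B2, TRBV14 with TRBJ1-1: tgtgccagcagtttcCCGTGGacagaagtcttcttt
B3, TRBV13-3 with TRBJ2-7: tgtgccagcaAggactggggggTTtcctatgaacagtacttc
B4, TRBV5 with TRBJ2-3: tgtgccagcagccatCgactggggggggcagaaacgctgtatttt
B5, TRBV26 with TRBJ2-1: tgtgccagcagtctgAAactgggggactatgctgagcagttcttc

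B1 held 10.7% of reads, B2 9.20% and B3 8.44%. B4 held 5.94% and B5 5.38%. All 5 carried at least 1 inserted base. In WT dermis the 5 largest were as follows.
W1, TRBV13-2 with TRBJ2-2: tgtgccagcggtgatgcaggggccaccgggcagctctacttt
W2, TRBV20 with TRBJ2-2: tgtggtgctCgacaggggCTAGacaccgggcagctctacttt
W3, TRBV13-3 with TRBJ1-3: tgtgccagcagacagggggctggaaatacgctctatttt
W4, TRBV16 with TRBJ1-1: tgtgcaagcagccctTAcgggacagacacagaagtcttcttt
W5, TRBV13-3 with TRBJ2-1: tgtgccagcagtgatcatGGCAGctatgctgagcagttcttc

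W1 held 2.66% of reads and W5 1.67%. The largest WT clonotype was therefore smaller, as a share, than any of the 5 largest of either knockout library. Among the 10 largest clonotypes, TRBV13-3 was used by 4 in A, 4 in B and 5 in WT, and 3, 1 and 3 had no inserted base.

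The WT dermal library held many clones of middling size, and both knockout dermal libraries were dominated by a few large ones. The 10 largest clonotypes took 43.3% of reads in A, 62.6% in B and 15.1% in WT, a mean of 52.9% ± 13.6 (SD, n = 2) against 15.1%. It took 14 clonotypes in A, 7 in B and 74 in WT to reach 50% of the reads. The inverse Simpson index, the number of equally sized clonotypes that would give the same evenness, was 27.8 in A, 19.5 in B and 175 in WT, and on the log2 scale the knockout mean was lower by 2.91 (4.54 ± 0.36, SD, n = 2, against 7.45). The WT index was 6.29 times that of A and 8.98 times that of B. Both knockout libraries lay on the same side of WT for each of these measures. Cell numbers per library were not given, so these differences cannot be told apart from differences in the number of cells sampled.

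Clonotypes with at least 1% of reads numbered 30 in A and 26 in B and held 76.4% and 94.8% of the reads, against 7 clonotypes with 12.4% of the reads in WT. The WT reads lay instead in 252 clonotypes of 0.1 to 1%, which held 79.2%. The same size class held 22.3% of reads in A, in 49 clonotypes, and 4.91% in B, in 12 clonotypes. B was thus the more extreme knockout library in each of these shares.

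**Figure D1:**
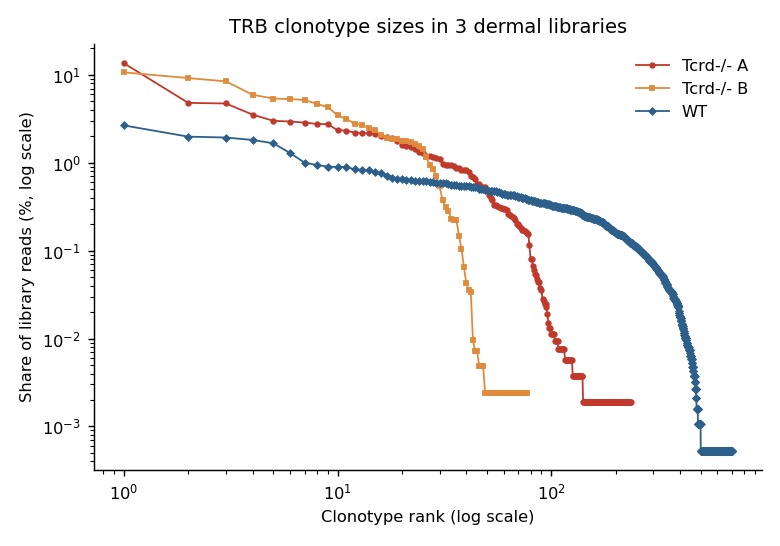
Share of library reads (%, log axis) of each clonotype against its rank by reads (log axis) in dermal Tcrd-/- A (circles), dermal Tcrd-/- B (squares) and WT (diamonds). The knockout curves start at 13.5% and 10.7% and drop early, while the WT curve starts at 2.66% and stays above both at ranks past 100.

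The difference in number was also present at equal read depth. Equal read depth does not make the number of sorted cells equal, so clone number and number of cells sampled cannot be told apart. Drawn to the same 41602 reads, 213.9 clonotypes would be expected in A, 77 in B and 526 in WT, a difference of -381 between the knockout mean and WT (SD of the knockout pair 96.8). With the lowest read numbers left out, 96, 42 and 457 clonotypes had at least 10 reads. Clonotypes under 10 reads made up 59.1% of the list in A, 45.5% in B and 34.9% in WT, but held 0.478%, 0.108% and 0.208% of the reads. They therefore weigh on every measure that counts clonotypes once and hardly on measures of reads.

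The low-read clonotypes also had near relatives. None was 1 mismatch from a clonotype at least 100 times larger in its library, but 29 of 139 in A, 8 of 35 in B and 139 of 245 in WT were within 2 mismatches. No clonotype with at least 10 reads had such a relative in any of the 3 libraries. Most could not have had one, since the largest clonotypes had 7160 reads in A, 4441 in B and 5030 in WT. In B, a clonotype of 15 reads was 1 base from one of 292 reads, which is less than 100 times larger. In addition 34 of the 139 in A and 13 of the 35 in B were also listed in another library of the same set, against 0 of 245 in WT, while 2, 1 and 2 were listed in libraries of other sets. Each library had 2 others in its set and 6 in other sets. For A the 2 included lymph node, with 26693 listed clonotypes, so its counts are not on a like basis with those of B and WT. Clonotypes of at least 10 reads were also listed in another library of the set, 16 of 96 in A (16.7%), 4 of 42 in B (9.52%) and 40 of 457 in WT (8.75%). The part of these in the measures was not tested beyond leaving them out, so shares of clonotypes are given below over clonotypes of at least 10 reads as well.

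Among V segments, TRBV13-3 took the largest share of reads in all 3 libraries and was higher in both knockouts. TRBV13-1, TRBV15 and TRBV16 took less of the reads in both. No segment passed the test in either direction, in a fit where the spread came from the dermal and epidermal knockout libraries. With the library set as a covariate, edgeR called 5 TRBV segments with a negative fitted difference in reads. All 5 had at most 0.524% of reads in any of the 3 libraries. TRBV segments lie on chromosome 6, and positions are from the GENCODE M21 annotation of GRCm38. The segment reference and build of the authors are not given in the sources used here.

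TRBV13-3 (6:41130147-41130585, plus strand, a TR_V_gene), a beta segment that MAIT cells often use and that conventional T cells use too, held 44.6% of reads in A, 36.5% in B and 25.04% in WT. The knockout mean was 40.6% ± 5.77 (SD, n = 2). Over clonotypes with at least 10 reads it was used by 32 of 96 in A (33.3%, 95% Wilson interval 24.7 to 43.2), by 11 of 42 in B (26.2%, 15.3 to 41.1) and by 71 of 457 in WT (15.5%, 12.5 to 19.1). The interval of A lay above that of WT, and that of B overlapped it. Over all listed clonotypes the shares were 22.1%, 15.6% and 15.5%, so B and WT did not differ there. The largest clone of each knockout library used this segment. Without the largest clonotype of each library, an alternative added after the data were seen, its read share was 36.0% in A, 28.9% in B and 25.7% in WT. The fitted difference in reads was 0.70 on the log2 scale (SE 1.06, edgeR quasi-likelihood adjusted p = 0.967).

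TRBV13-1 (6:41116007-41116468, plus strand) belongs to the same family as TRBV13-3 and showed the opposite order. It held 0.115% of reads in A, 0.897% in B and 9.19% in WT, which was 79.7 and 10.3 times more in WT. The WT reads were spread over 34 clonotypes of at least 10 reads, none above 0.828% of reads, while A had 2 such clonotypes and B 3. As a share of clonotypes with at least 10 reads it took 2.08%, 7.14% and 7.44%. The B share rested on 3 clonotypes (Wilson interval 2.46 to 19.0), and 2 of these, with 292 and 15 reads, differed at 1 base. These are too few to tell whether B differed from WT in how common the segment was among clonotypes or in their size. The fitted difference in reads was -4.18 on the log2 scale (SE 3.22, edgeR adjusted p = 0.9004). TRBV13-2 (6:41121396-41121832), the third member and a segment of many invariant NKT cells, held 11.8%, 4.63% and 14.4% of reads and 13 of 96, 2 of 42 and 65 of 457 clonotypes of at least 10 reads. The TRBV13 family together held 56.5%, 42.0% and 48.6% of reads, with WT between the knockouts.

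TRBV15 (6:41141188-41141658, plus strand) is named because its reads had the lowest p, a choice made after its values were seen. It held 28 reads in A (0.0529%), 0 in B and 8979 in WT (4.75%). WT had 22 clonotypes of at least 10 reads with this segment, A 1 and B 0. The fit gave -7.47 on the log2 scale (SE 2.52, edgeR adjusted p = 0.1002), so the segment missed the threshold. It passed with TMM factors (edgeR adjusted p = 0.0469) and without library A (edgeR adjusted p = 0.0447), but not without library B (0.851), in the 3 dermal libraries alone (0.976), with the library set as covariate (0.451) or in DESeq2 (0.160). TRBV16 (6:41151740-41152230) held 0.457%, 1.75% and 6.29% of reads and 4, 1 and 30 clonotypes of at least 10 reads, with an edgeR adjusted p of 0.967.

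Several other V segments were large in 1 knockout library and small in the other. TRBV14 held 9.20% of reads in B against 0.234% in A and 1.06% in WT, and the B reads were 1 clonotype, B2. TRBV26 held 9.94% in B, in 4 clonotypes of at least 10 reads, against 1.57% in A and 2.10% in WT. TRBV20 held 7.34% in A and 5.03% in WT, but 1 read in B. TRBV1 held 6.29%, 13.7% and 7.52% of reads, TRBV5 4.69%, 6.53% and 3.40%. TRBV3 held 1.52%, 3.07% and 1.85% of reads. TRBV30 held 1.58% of reads in A, 0% in B and 0.34% in WT, and 5.11%, 0% and 0.855% of listed clonotypes. In TRBV14, TRBV26, TRBV20 and TRBV1 the knockout libraries differed from each other by more than either differed from WT.

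Of the segments listed for cell types with semi-invariant receptors, 0 of 5 passed the test. TRBV29, used by invariant NKT cells with TRBV13-2 and TRBV1, held 2.97%, 4.92% and 6.93% of reads. TRBV19, used by MAIT cells with TRBV13-3, held 7.26% in A, 2.86% in B and 1.65% in WT. As a share of clonotypes with at least 10 reads TRBV19 was at 6.25%, 4.76% and 6.56%, so the order in reads was one of clone size. Conventional αβ T cells use all 5 segments, and no alpha chain was analysed here.

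**Figure D2:**
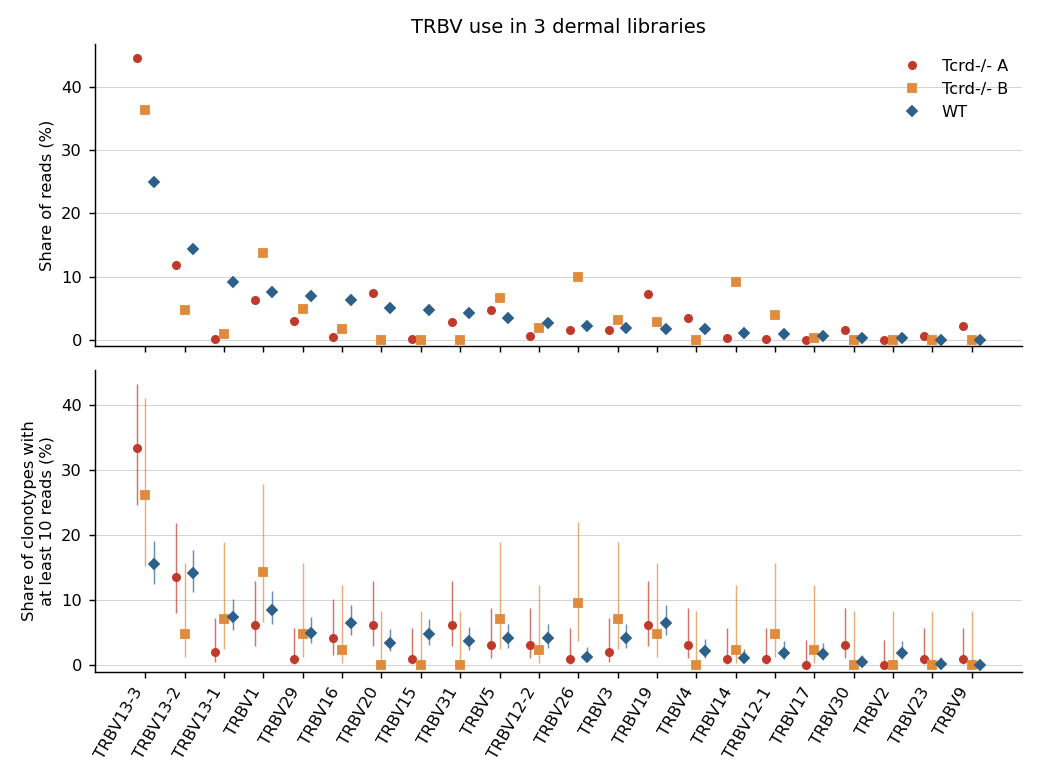
Share of reads (%, upper panel) and of clonotypes with at least 10 reads (%, lower panel, bars are 95% Wilson intervals) per TRBV segment, for segments with at least 1% of either in 1 of the 3 libraries. TRBV13-3 stands highest in all 3 libraries, and the WT points for TRBV13-1, TRBV15 and TRBV16 lie above both knockouts in reads.

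By edgeR with Benjamini-Hochberg adjustment, 0 of 25 TRBV segments (0%) passed in reads and 0 of 21 (0%) in clonotypes. At an unadjusted p under 0.05 there were 2 in reads, TRBV15 and the pseudogene TRBV24, and 1 in clonotypes, TRBV2. The 5 called in reads with the library set as covariate were TRBV2, TRBV21, TRBV23, TRBV24 and TRBV8 (lowest edgeR adjusted p 3.67e-08), in a fit where WT shares its set with B and not with A. TRBV23 held 0.524% of reads in A, 0% in B and 0.0206% in WT. DESeq2 called 1 in reads, the pseudogene TRBV9, which was listed in A alone at 2.17% of reads, and 0 in clonotypes. By size, 3 of 19 segments with at least 1% of reads in a library (15.8%) were at least 2-fold lower in both knockouts than in WT, and 0 of 19 (0%) were 2-fold higher. Over clonotypes of at least 10 reads, 2 of 22 (9.09%) were 2-fold lower, TRBV15 and TRBV2, and 0 of 22 (0%) higher. TRBV2 had 9 such clonotypes in WT and none in A or B, where it was listed at 0 reads. These few segments are named after their values were seen. In the 42 clonotypes of B a count of 0 allows a share of up to 7.14%, which is above the 1.97% of TRBV2 in WT.

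Among J segments, TRBJ1-3 and TRBJ2-4 took less of the reads in both knockout libraries, and none was higher in both by 2-fold. TRBJ1-3 (6:41534323-41534376) held 1.71% of reads in A, 0.286% in B and 6.81% in WT. TRBJ2-4 (6:41543362-41543410) held 3.04%, 1.12% and 7.14%. Over clonotypes of at least 10 reads TRBJ1-3 took 2.08%, 2.38% and 4.60% and TRBJ2-4 6.25%, 9.52% and 9.63%, with overlapping intervals. Over all listed clonotypes TRBJ2-4 took 6.38% in A and 8.69% in WT, but 13 of 77 in B (16.9%, 95% Wilson interval 10.1 to 26.8). B thus lay above WT there. Of its 13 clonotypes only 4 had at least 10 reads, and 4 were TRBV13-1 sequences alike to within 2 bases of the largest. The interval counts these as separate.

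The largest J segment in reads was TRBJ2-5 in A (25.1%), TRBJ2-7 in B (33.6%) and TRBJ2-7 in WT (17.7%). Few clones made up much of this in the knockouts: A1 held 13.5% of the reads of A, and B1 and B3 held 10.7% and 8.44% of those of B. In WT the largest TRBJ2-7 clonotype held 0.896% of reads. Among clonotypes of at least 10 reads, TRBJ2-7 was the most used in all 3, at 21.9%, 21.4% and 19.5%. TRBJ1-1 held 12.4%, 13.9% and 9.11% of reads, TRBJ2-1 10.6%, 18.2% and 11.8%, and TRBJ1-2 3.01%, 12.5% and 6.93%. TRBJ2-2 held 9.48%, 5.46% and 12.6%, TRBJ2-3 13.1%, 7.81% and 9.89%, and TRBJ1-4 6.21%, 1.85% and 2.87%. TRBJ1-5 was the rarest in A, with 0.00756% of reads against 1.75% in B and 2.74% in WT.

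The TRBJ1 cluster as a whole held 23.3%, 30.3% and 28.5% of reads and 26.8%, 22.1% and 28.9% of listed clonotypes. edgeR passed 0 of 12 TRBJ segments (0%) in reads and 0 of 11 (0%) in clonotypes, with none at an unadjusted p under 0.05 in either, and DESeq2 called 0 in both. By size 2 of 11 (18.2%) were 2-fold lower in reads and 0 of 11 (0%) higher, and over clonotypes of at least 10 reads 0 of 11 (0%) were lower and 0 of 11 (0%) higher.

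**Figure D3:**
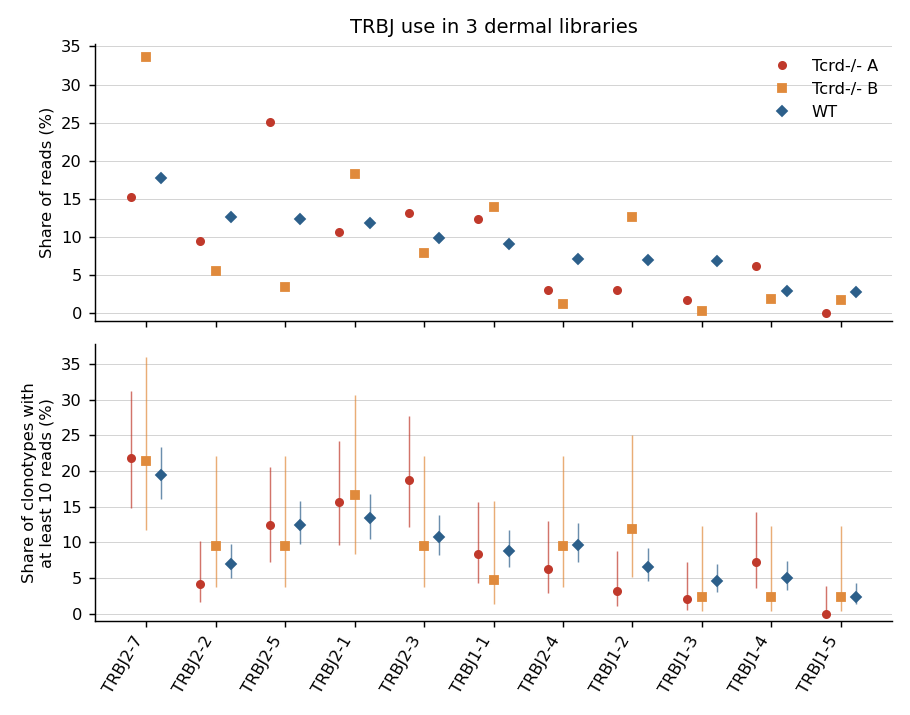
Share of reads (%, upper panel) and of clonotypes with at least 10 reads (%, lower panel, bars are 95% Wilson intervals) per TRBJ segment, ordered by the WT read share. TRBJ2-5 in A and TRBJ2-7 in B stand out in reads at 25.1% and 33.6%, while the intervals over clonotypes overlap between the libraries.

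The 96, 42 and 457 clonotypes of at least 10 reads used 58 V-J pairs in A, 32 in B and 157 in WT, numbers that follow the number of clonotypes. The largest pair of A in reads, TRBV13-3 with TRBJ2-5, held 13.8%, of which 98.1% was A1. The largest of B and of WT was the same pair, TRBV13-3 with TRBJ2-7, at 19.1% from 2 clonotypes in B and 6.11% from 33 clonotypes in WT. TRBV13-3 with TRBJ1-1 ranked next in A at 9.20% from 7 clonotypes, and held 4.68% from 1 clonotype in B and 0.412% from 1 in WT. TRBV13-2 with TRBJ2-3 came next in A at 7.06%, from 13 clonotypes, and was at 1.16% in B and 2.499% in WT.

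In B, TRBV14 with TRBJ1-1 held 9.20% from 1 clonotype and TRBV5 with TRBJ2-3 held 6.49% from 6. In WT, TRBV13-3 with TRBJ2-1 held 4.21% from 13 clonotypes and TRBV13-3 with TRBJ1-3 3.96% from 8. Counted by clonotypes, the leading pair was TRBV13-2 with TRBJ2-3 in A (13), TRBV5 with TRBJ2-3 in B (6) and TRBV13-3 with TRBJ2-7 in WT (33). edgeR passed 0 of 63 pairs (0%) by clonotypes, with 2 at an unadjusted p under 0.05, TRBV13-3 with TRBJ1-1 and TRBV5 with TRBJ2-3, both higher in the knockouts, and DESeq2 called 0. With at least 10 reads asked for, TRBV13-3 with TRBJ1-1 had 6, 1 and 1 clonotypes and TRBV5 with TRBJ2-3 had 1, 2 and 1, so 4 of the 6 of B in the latter pair had fewer reads. The lowest edgeR adjusted p was 0.708.

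CDR3 length was close to equal in the 3 libraries. The mean over listed clonotypes was 14.0 amino acids in A, 13.9 in B and 13.8 in WT, a difference of 0.104 against an SD of 0.131 between the knockout libraries (n = 2), and the median was 14 in each. The most frequent length was 15 in both knockouts, at 28.9% and 27.3% of clonotypes, and 14 in WT, at 29.6%. In B this rested on 21 clonotypes at length 15 against 20 at length 14. By reads B peaked at 14 (31.5%), as WT did (33.6%). Over clonotypes of at least 10 reads the means were 14.3, 14.02 and 13.8, and weighted by reads 14.4, 13.7 and 13.7, so A alone was longer in reads.

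With each clonotype counted once, inserted bases set A apart from both B and WT, but not by reads. The mean number per listed clonotype was 3.98 in A, 2.51 in B and 2.57 in WT, and clonotypes with 6 or more made up 23.0%, 10.4% and 9.26%. Over clonotypes of at least 10 reads the means were 3.55, 2.48 and 2.48. Weighted by reads they were 3.12, 2.87 and 2.46, and clonotypes with 6 or more held 16.3%, 20.9% and 5.74% of reads. By reads B thus lay above WT too. In B, B1 and B2 carried 6 each and held 10.7% and 9.20% of reads. The V-D joint held a mean of 1.19, 0.662 and 0.819 inserted bases and the D-J joint 1.46, 0.935 and 0.903. Over listed clonotypes the 2 knockout libraries differed from each other by more than B differed from WT. Leaving out A turned that difference of the knockout mean from WT from 0.674 to -0.0619.

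Clonotypes in which every base was assigned to V, D or J, mismatched D bases included, made up 18.3% in A (95% Wilson interval 13.9 to 23.7), 18.2% in B (11.2 to 28.2) and 20.8% in WT (18.0 to 24.0). Over clonotypes of at least 10 reads they made up 14 of 96 (14.6%, 8.89 to 23.0), 5 of 42 (11.9%, 5.19 to 25.0) and 96 of 457 (21.0%, 17.5 to 25.0). Both knockout libraries were below WT, with overlapping intervals. Weighted by reads the shares were 23.1%, 8.88% and 23.4%, and A1 alone made up 13.5% of the reads of A.

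**Figure D4:**
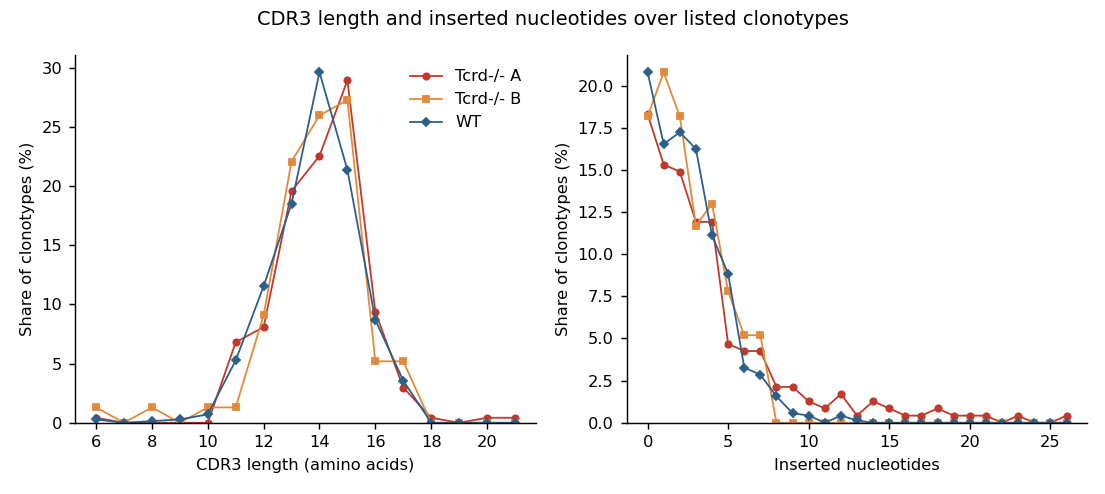
Share of listed clonotypes (%) by CDR3 length in amino acids (left) and by number of inserted nucleotides (right) in the 3 libraries. The length curves peak at 15 in A and at 14 in WT, while B has 21 clonotypes at 15 and 20 at 14. A (circles) has a tail of clonotypes that reaches 26 inserted nucleotides, against 7 in B and 13 in WT.

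The D segments are short and rich in G. In the GENCODE M21 transcripts, on the plus strand of GRCm38 chromosome 6, they read as follows and are shown because the junctions above carry pieces of them.
TRBD1, 6:41533201-41533212: gggacagggggc
TRBD2, 6:41542163-41542176: gggactgggggggc

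The mean number of bases assigned to D over listed clonotypes was 6.52 in A, 6.27 in B and 6.39 in WT, counting 0 where no D was assigned. Over clonotypes of at least 10 reads it was 6.93, 7.05 and 6.21, and weighted by reads 7.24, 7.05 and 5.74, but the share of clonotypes with no D differed too. No D was assigned to 20.8%, 16.7% and 25.6% of clonotypes of at least 10 reads and to 17.9%, 19.3% and 26.5% of reads. Among the clonotypes of at least 10 reads that had a D, the means were 8.75, 8.46 and 8.34, and weighted by reads 8.82, 8.75 and 7.81. TRBD2 was assigned to 34.9%, 28.6% and 36.8% of clonotypes and to 43.6%, 34.1% and 26.8% of reads. Over all listed clonotypes no D was assigned to 23.0%, 26.0% and 24.5%. Of clonotypes of at least 10 reads with 6 or more D bases, 29 of 68 in A, 7 of 34 in B and 96 of 288 in WT had a D stretch that matched the reference sequence of its assigned D in neither orientation. The mismatched bases in such stretches are counted as D and not as inserted.

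Cysteines coded beyond the V segment were more frequent in both knockout libraries than in WT. A cysteine inside CDR3 is known from T cell studies as a feature of receptors that bind without the usual MHC restriction. It was found in 7 of 235 clonotypes in A (2.98%, 95% Wilson interval 1.45 to 6.02), 5 of 77 in B (6.49%, 2.81 to 14.3) and 5 of 702 in WT (0.712%, 0.305 to 1.66). In reads these held 2.35%, 4.21% and 0.00317%. Any residue after the V segment was counted, the last ones included. The WT cysteines lay at residue 12 of 14, 12 of 13, 15 of 16, 12 of 12 and 13 of 14. In A those of rank 123 and 221 lay at residue 13 of 14, and the others of A and B lay further from the end. All 5 WT clonotypes had 1 or 2 reads, and none of the 457 with at least 10 reads had such a cysteine, which allows a share of up to 0.656%. In A 1 of 96 had it and in B 3 of 42. The interval of A overlapped that of WT, and 6 of the 7 in A had 1 to 3 reads. That of B lay above WT, but 4 of its 5 clonotypes were TRBV13-1 sequences alike to within 2 bases of the largest. The interval counts these as separate, so it is too narrow to set B apart from WT. The clonotypes of at least 10 reads are printed with the cysteine codon, tgt (Tgt where its first base was inserted), at residue 6 of AC1, residue 9 of BC1 and residue 11 of BC2 and BC3, counted from the first cysteine as 1.
AC1, TRBV19 with TRBJ2-1: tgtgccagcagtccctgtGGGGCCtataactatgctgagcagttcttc
BC1, TRBV13-2 with TRBJ2-7: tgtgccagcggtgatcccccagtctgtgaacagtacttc
BC2, TRBV13-1 with TRBJ2-4: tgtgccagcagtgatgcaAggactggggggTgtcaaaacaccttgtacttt
BC3, TRBV13-1 with TRBJ2-4: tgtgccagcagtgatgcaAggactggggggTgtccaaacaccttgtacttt

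AC1 held 1232 reads (2.33%, rank 11), BC1 1440 (3.46%, rank 10), BC2 292 and BC3 15. BC3 differed from BC2 at 1 base, and the other pair of cysteine clonotypes of B, with 2 reads and 1 read, at 2 bases, so the 5 of B fall into 2 groups of like sequence. The D stretch of AC1 matched TRBD1 only as its reverse complement and that of BC1 matched TRBD2 only in that way. They were the only clonotypes of at least 10 reads in A and B with a reversed D of 6 or more bases. Of such clonotypes with 6 or more D bases, a reversed D was found in 1 of 68 in A (1.47%), 1 of 34 in B (2.94%) and 3 of 288 in WT (1.04%). The counts are small, the measure was chosen with these data known, and no test was made. Over all listed clonotypes the same share was 2.64% and 3.94% in the CD103+ and CD103hi dermal Tcrd-/- libraries. It was 2.83%, 4.83% and 5.56% in the 3 epidermal ones and 0.431% of 26693 in Tcrd-/- lymph node. Over clonotypes of at least 10 reads it was 1 of 172 (0.581%) in CD103+ and 6 of 178 (3.37%) in CD103hi. The epidermal libraries had 4 of 139, 7 of 180 and 2 of 26. Lymph node had 0 of 60, which allows up to 5%, too few to compare it with skin there.

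Almost no clonotype was common to the libraries. By V, J and amino acid CDR3, A and B shared 0, A and WT shared 1, and B and WT shared 13, which were 17.3% of the 75 of B and 1.96% of the 664 of WT. The 1 of A and WT had an incomplete CDR3 and 2 reads in A. B and WT belong to 1 library set. Of their 13, 12 had the same nucleotide sequence, and these had 1 or 2 reads in B against 15 to 997 in WT. Only 2 of the 13 remained when at least 2 reads were asked for in each library, and the Morisita-Horn index, which runs from 0 to 1 with the overlap in reads, was 0.00233.

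The remaining clonotype was large in both libraries and was reached by different bases, with 2 mismatches.
B, TRBV1 with TRBJ2-7: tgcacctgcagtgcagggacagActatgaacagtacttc
WT, TRBV1 with TRBJ2-7: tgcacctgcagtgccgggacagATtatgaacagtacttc

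It had 596 reads in B (1.43%, rank 25) and 871 in WT (0.460%, rank 57), with 13 amino acids and 1 and 2 inserted bases. With 1 amino acid difference allowed at the same V and J, 2 of the 96 clonotypes of A with at least 10 reads had a match in WT, 2 of the 42 of B had one in WT, and 0 of A had one in B. Within a library, 12 of 445 amino acid clonotypes of WT had more than 1 nucleotide version, against 1 of 95 in A and 0 of 42 in B.

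**Figure D5:**
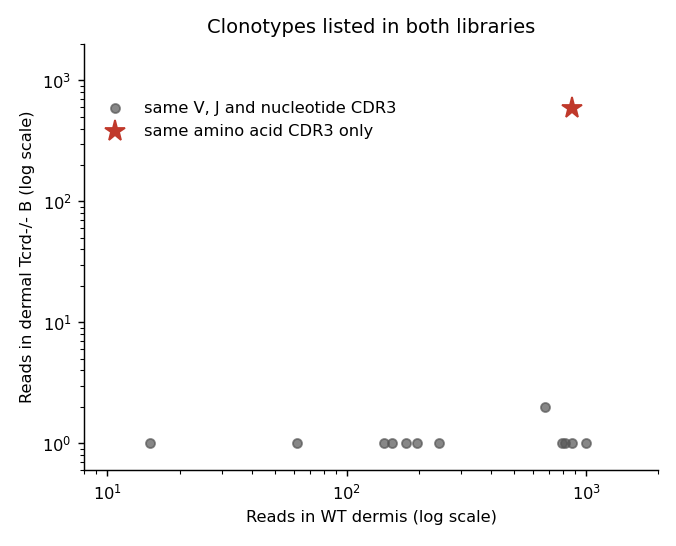
Reads in dermal Tcrd-/- B (log axis) against reads in WT dermis (log axis) for each clonotype listed in both. The 12 with the same nucleotide CDR3 (circles) lie at 1 or 2 reads in B, and the star, which shares only the amino acid CDR3, lies at 596 and 871 reads.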

How the data were processed

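The members and lists were chosen with earlier results of these data known. The deposited tables give 1 clonotype per line with, per the file headers, a read count, its fraction of the library's reads, the CDR3, the V, D and J segments and their end positions. The aligner, clonotype caller, error correction and segment reference are not given in the sources used here. Totals were 41602 to 189162 reads in the dermal libraries. Inserted bases were those outside the deposited segment positions. Counts of reads and of clonotypes per segment were tested with edgeR 4.0.16 (R 4.3.3; quasi-likelihood, legacy fit, common dispersion, library totals, no TMM, at least 10 counts over the fitted libraries), with Benjamini-Hochberg adjustment and a threshold of 0.05. The fit used dermal Tcrd-/- (2), WT (1) and epidermal Tcrd-/- (3) libraries; the lone WT library is assumed to vary like the others. The division of animals between pools is not stated, and p-values speak only to variation among the libraries. Scripts in Python 3.11.15 (pandas 2.3.3, scipy 1.17.1) and the fits were tested on simulated data.

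Named were segments past the threshold, TRBV with at least 5% of reads or clonotypes in a library and 5 listed ones, all TRBJ, the 3 leading pairs and the 5 largest clonotypes per library, and large shared clonotypes. Alternatives were DESeq2 1.42.0, TMM, the library set as covariate, 3 dermal libraries only, no filter, the newer edgeR fit, leaving out A or B, minimum reads, no trace clonotypes (under 1% of their share in another library of the set), complete CDR3, amino acid clonotypes, equal depth and read weights. The cysteine and D base measures with their alternatives, the 2-fold description and the removal of the largest clonotype were added after seeing the data. The TRG library was not used.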

Additional observations from a re-analysis of the deposited data

How the results depend on the processing

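Equal-depth clonotype number, inverse Simpson index and the share of the 10 largest clonotypes moved by less than 1 SD of the knockout pair under each of the 6 alternatives that kept both knockout libraries; leaving out 1 of 2 moves a mean by a fixed part of that SD and says nothing here. The TRBJ and pair tests stayed at 0 calls under 12 or 13. TRBV clonotypes gave 1 call in the 3 dermal libraries alone (TRBV2). TRBV reads gave 5 with the library set as covariate, 1 with TMM factors and 1 with DESeq2. The 5 were TRBV2, TRBV21, TRBV23, TRBV24 and TRBV8, all with a negative fitted difference. TRBV23 nevertheless held more of the reads in A (0.524%) than in WT (0.0206%). The mean CDR3 length difference (0.104) became 0.239 at 2 or more reads, 0.346 at 10 or more, 0.310 at 0.01% of reads or more and 0.330 by reads. The difference in clonotypes with no insertion (-2.56 percentage points) became -3.48, -7.76 and -6.42 at those 3 minimums, -5.49 without trace clonotypes, -2.18 for complete CDR3, -2.45 at equal depth and -7.44 by reads. Mean inserted bases ranged from -0.0619 without A to 1.41 without B. TRBV13-1 among clonotypes was 0.544 points above WT without A and -4.72 without B. The mean D base difference was -0.113 without A and 0.133 without B. Clonotypes shared by B and WT were 2 at 2 or more reads. The causes were not tested. Inserted bases have no value per amino acid clonotype.

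No paired analysis was possible because the WT library carries no replicate letter; the library set that B and WT share was fitted as a covariate instead. With 1 WT pool and 2 knockout pools, 42 clonotypes of at least 10 reads in B and no cell numbers, differences in segment use missed the threshold even when large, such as TRBV13-1 in reads.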
